A study of Bos taurus with 45 samples.

Results

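The rumen wall carries finger-like papillae whose stratified squamous epithelium takes up the short-chain fatty acids made by the rumen microbes and keeps those microbes out of the body. Starch-rich grain is fermented faster than forage, and cattle are therefore moved to high grain diets in steps. The genes described here were those whose transcript level in the papillae was higher on both high grain diets than on the forage diet. There were 79 such genes of 11516 detected genes, out of 24616 genes listed for the tissue. The number depends on the scale: 48 genes met the rule when RPM were rescaled by TMM or median-of-ratios factors, and 157 with a pseudocount of 0.1. Members were chosen by their measured levels: a gene was detected when its level in RPM (reads of a gene per 1000000 reads on genes, not divided by gene length) exceeded 1 in all 15 heifers on at least 1 diet, and it was a member when its mean rise in log2(RPM + 1) over the 15 heifers was 0.585 or more for each of the 2 high grain diets against 0% grain. Of the detected genes, 171 met the minimum on 72% grain, 212 met it on 89% grain and 80 met both. The rule leaves out 4 named genes, and 1 of them would have met it.

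The samples were biopsies of papillae from the ventral sac of the rumen of 15 Angus-Hereford yearling heifers, each sampled on diets of 0%, 72% and 89% grain (given as 3%, 75% and 92% in the sample labels), which makes 45 libraries. Poly(A) RNA of whole papillae was sequenced, so that fewer cells of a type and less RNA per cell cannot be told apart. Every heifer received the diets in the same order, with biopsies on days 3, 15 and 26 of the step-up. Diet and time therefore cannot be told apart. The study also assigned heifers to a control treatment, but none of these is among the 45 libraries. The libraries held 22532925 to 37082742 reads on genes, with a median of 30795539. No member's identifier could be paired with a gene symbol in the sources used here, so the members are described by their levels, and neither the labelled tissue nor the cell types in the biopsies could be checked against marker genes.

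The heifer number of 3 of the 0% grain libraries went against the data. The check used the 33 detected genes whose differences between heifers were repeated on 72% and 89% grain (Pearson r over 0.9 across the 15 heifers and SD of log2(RPM + 1) over 0.5), a choice that did not use the 0% grain libraries. Across these 33 genes, the 0% grain libraries of 12 heifers correlated best with the 72% and 89% grain libraries of their own number, at r = 0.68 to 0.98, and at r of 0.56 or less with any other heifer. The 0% grain library labelled 182 correlated at r = 0.49 and 0.45 with the 72% and 89% grain libraries of heifer 182 and at 0.95 and 0.95 with those of heifer 286. The 0% grain library labelled 286 correlated at r = 0.50 and 0.49 with its own number and at 0.97 and 0.98 with heifer 182. The 0% grain library labelled 352 correlated at r = -0.17 and -0.25 with its own number and at no more than 0.32 with any other. A number exchanged between libraries of 1 diet leaves the mean of that diet as it is. The mean rise of a gene over all 15 heifers is then also unchanged. This covers the libraries labelled 182 and 286, which matched each other's number. It does not cover the library labelled 352, which matched no heifer. If that library came from another animal, it can shift the 0% grain mean and the mean rises that chose the members. Without the 3 libraries, the rises were means over the 12 other heifers. In that setting 98 genes met the rule, and 68 of these were members. Leaving out heifer 182, 286 or 352 alone gave 82, 94 and 72 genes, with 73, 74 and 67 of the members, so the 98 is not the effect of the library labelled 352 alone. A wrong number does change a rise within a heifer, so within-heifer rises are also given, or given alone, over the 12 other heifers. On the first 2 principal components, the 0% grain library of heifer 172 and the 89% grain library of heifer 286 lay farthest from the median of their diets, at 45.5 and 34.7. The farthest 72% grain library, that of heifer 352, lay at 18.6.

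The 79 members rose by a median of 0.79 on 72% grain (0.59 to 1.72) and 0.77 on 89% grain (0.59 to 1.95), both in log2(RPM + 1). The medians over all detected genes were 0.08 and 0.06. As ratios of the mean RPM of the diets, the members were at a median of 1.95 times their 0% grain level on 72% grain (1.38 to 3.59) and 1.84 times on 89% grain (1.37 to 3.94). A rise of 1 or more on both diets was found in 6 members, and on at least 1 diet in 24. These values chose the members and are given as a description. By limma, 76 members were called higher on 72% grain (adjusted p below 0.05 with more than a 1.5-fold change), against 1.41% of all genes tested, and 75 on 89% grain, against 1.78%. A replicate block for the heifer gave 79 (1.45% of all genes) and 77 (1.81%). These counts follow from the rule. The 3 members closest to the minimum had a smaller rise of 0.587 to 0.589, and the 3 genes closest to it from below had one of 0.579 to 0.580.

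**Figure D1:**
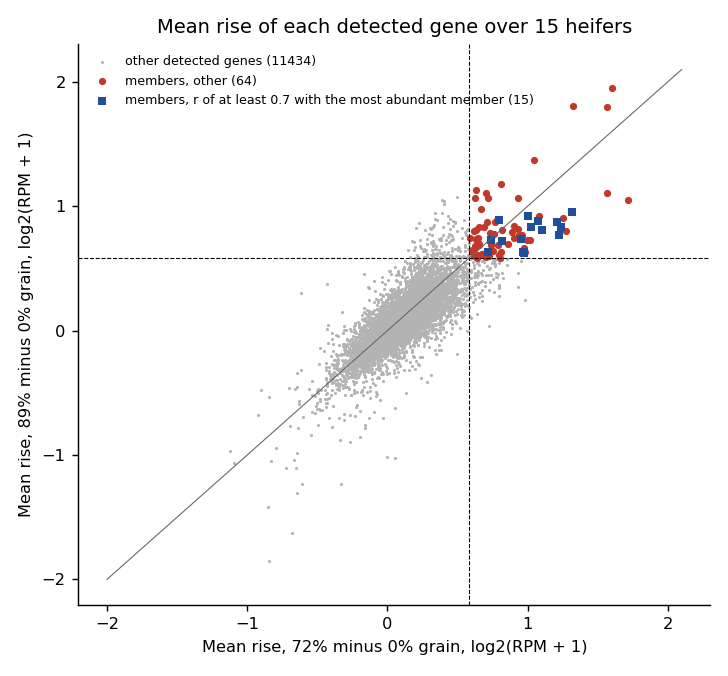
Mean rise of each detected gene over 15 heifers on 72% grain (horizontal axis) and 89% grain (vertical axis), both against 0% grain in log2(RPM + 1). Dashed lines mark the minimum of 0.585 and the solid line equal rises; the 15 blue squares, which follow the member with the most reads, lie mostly below the line of equal rises, and the 64 red members lie on both sides of it.

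The median member had a mean of 10.4 RPM over the 45 libraries and the median detected gene 21.9 RPM, a read number that also depends on gene length. On 0% grain, 32 of the 79 (40.5%) had a mean under 5 RPM, against 16.6% of all detected genes, and 4 had a mean over 100 RPM. RPM exceeded 1 in all 15 heifers for 54 members on 0% grain, 72 on 72% grain and 78 on 89% grain, so 25 members passed the filter on low values only through a diet on which they were higher. The lowest value was 3 reads in a library, and no member was at 0 in any library. The members together took up 0.178%, 0.372% and 0.35% of the reads on 0%, 72% and 89% grain. The 12 members with the most reads held 65.9% of the members' RPM.

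With all libraries included, no member separated the diets completely. In none of the 79 was the lowest 72% grain library above the highest 0% grain library, a separation met by 0.0174% of all detected genes, and the same was true of 89% grain, where it was met by 0.0261%. The rule asks for a mean rise on both diets and so favours the counts that follow. With the heifer numbers as labelled, 21 members were higher on 72% grain in all 15 heifers (1.95% of all detected genes were). On 89% grain 22 were (1.42%), and 12 on both (0.356%). Over the 12 heifers whose 3 libraries belonged together, 43 members were higher on 72% grain in all of them (4.65% of all detected genes). On 89% grain 26 were (3.15%), and 16 on both (1.01%). Asking for a rise in 12 rather than 15 heifers can only keep or raise such counts. On 72% grain the count went from 21 to 43 members, and from 1.95% to 4.65% of all detected genes.

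**Figure D2:**
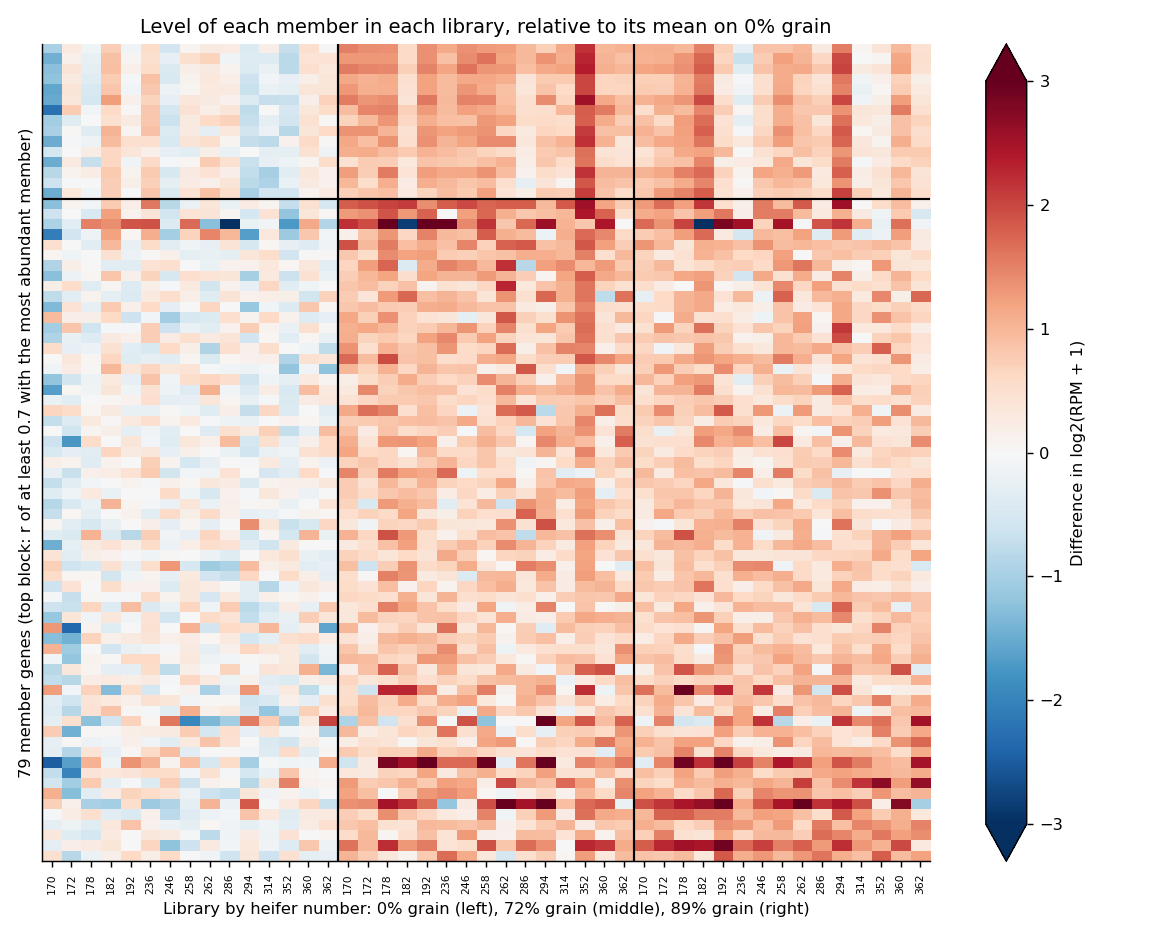
Level of the 79 members (rows) in the 45 libraries (columns, by heifer number within 0%, 72% and 89% grain), as the difference in log2(RPM + 1) from the member's mean on 0% grain, with colours ending at 3 in either direction. The upper 15 rows move together from heifer to heifer, high in the 72% grain library of heifer 352 and in the 89% grain libraries of heifers 182 and 294, and the row with the darkest blue cells is ENSBTAG00000035171.

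ENSBTAG00000037526 was the member with the largest smaller rise. Its level was 35.0 to 275.3 RPM on 0% grain (median 72.8), 33.5 to 1223.5 RPM on 72% grain (median 249.0) and 37.8 to 648.7 RPM on 89% grain (median 344.8). The mean levels were 90.8 ± 63.0, 325.6 ± 295.5 and 358.0 ± 177.4 RPM (SD, n = 15), so the SD on 72% grain was close to the mean. All diets overlapped: the 72% grain library of heifer 236 and the 89% grain library of heifer 362 were as low as 0% grain libraries. Its rise was 1.60 on 72% grain and 1.95 on 89% grain. Of the 12 heifers, 11 were higher on 72% grain and 11 on 89% grain.

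ENSBTAG00000021466 was the member with the most reads. Its level was 103.8 to 473.1 RPM on 0% grain (median 277.9), 414.4 to 1282.1 RPM on 72% grain (median 616.4) and 195.2 to 1021.3 RPM on 89% grain (median 542.4). Only 1 of the 0% grain libraries, that labelled 182, reached the lowest 72% grain library, whereas 11 of them reached the lowest 89% grain library. The mean levels were 267.9 ± 96.1, 649.3 ± 202.9 and 526.6 ± 216.0 RPM (SD, n = 15), and the rises were 1.32 and 0.95. It was higher in 12 of 12 heifers on 72% grain and in 11 on 89% grain, where heifer 236 had 195.2 RPM against 370.5 RPM on 0% grain. Between the grain diets it was lower on 89% grain in 12 of 15 heifers, by -0.36 (SE 0.17; limma, adjusted p = 0.42; 0.29 with the heifer block).

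A set of 15 members, ENSBTAG00000021466 included, was defined after the values were seen, as the members with Pearson r of 0.7 or more with ENSBTAG00000021466 across the 15 heifers on each diet taken alone, a likeness met by 30 of all detected genes (0.261%). This choice fixes a high r between members of the set and a lower one among the 64 others, so r within the set supports nothing further. Over all pairs of the 79 members, the median r was 0.15 on 0% grain, 0.13 on 72% grain and 0.10 on 89% grain, and over all pairs of detected genes it was 0.05, 0.04 and 0.15. These points share libraries and their depth. Without the 0% grain library of heifer 172 and the 89% grain library of heifer 286, 15 members met the same limit. The correlations are taken within a diet, so the numbers on the 0% grain libraries have no part in them.

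The 15 members of the set summed to 294.5 to 1419.8 RPM on 0% grain (median 816.5), 1094 to 3636 RPM on 72% grain (median 1603) and 606.5 to 2776 RPM on 89% grain (median 1486). The highest 72% grain value was in heifer 352, whose 89% grain library held 891.8 RPM. The lowest 89% grain value was in heifer 236, which had 1537 RPM on 72% grain. The sum was lower on 89% than on 72% grain in 12 of 15 heifers and higher in heifers 182, 294 and 360. ENSBTAG00000021466, the gene with the most reads in the sum, was itself higher in the same heifers and lower in the others, so the sum partly repeats that gene. On 89% grain the range of the sum ran from below the median of 0% grain to above all but 1 of the 72% grain libraries. Its SD over the 15 heifers was 590 RPM on 72% grain and 600 RPM on 89% grain. The SD on 72% grain rests in large part on heifer 352 at 3636 RPM, since the next highest library, that of heifer 246, held 2002 RPM.

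The 64 other members summed to 651.8 to 1189.2 RPM on 0% grain (median 993.7), 1571 to 2591 RPM on 72% grain (median 1822) and 1646 to 2811 RPM on 89% grain (median 1918). The sums on 0% grain did not overlap those on either grain diet, a direction that the choice of members fixes. Unlike the set of 15, their sum was higher on 89% than on 72% grain in 11 of 15 heifers. The 2 patterns were defined on these libraries and their difference was not tested.

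**Figure D3:**
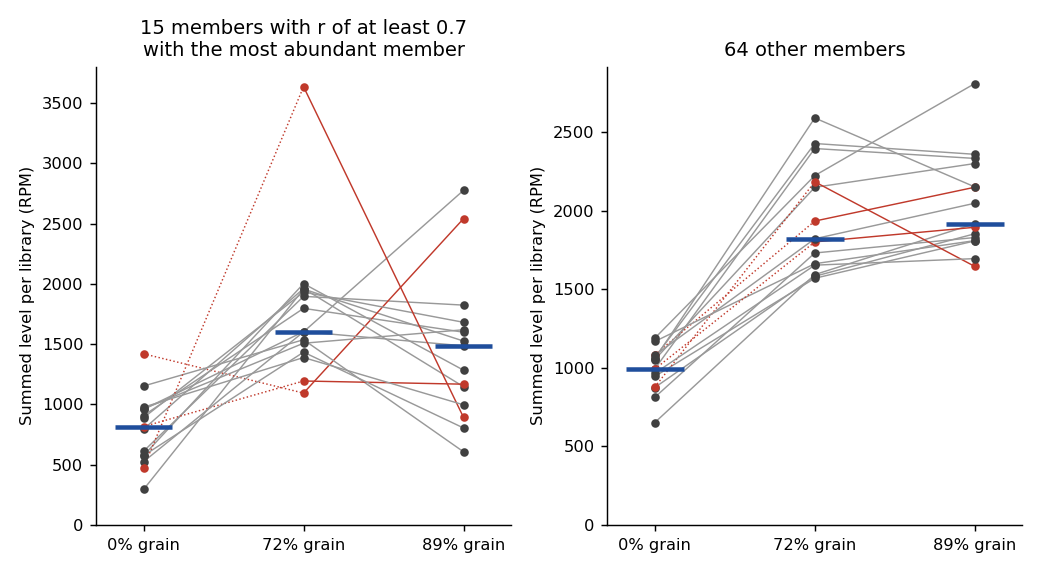
Summed RPM per library for the 15 members that follow ENSBTAG00000021466 (left) and the 64 others (right) on 0%, 72% and 89% grain, with a line for each heifer, blue bars for medians, and heifers 182, 286 and 352 in red with dotted lines to the 0% grain library of their number. Medians go from 816.5 to 1603 and 1486 RPM on the left and from 993.7 to 1822 and 1918 RPM on the right. The libraries of each diet spread more widely on the left.

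The size of the rise differed from heifer to heifer. Each heifer had a single biopsy per diet, so differences between animals and between biopsies cannot be told apart. Over the 12 heifers whose libraries belonged together, the median rise of the 79 members within a heifer was 0.37 to 1.42 on 72% grain and 0.23 to 1.24 on 89% grain, beside a median of all detected genes of -0.02 to 0.18 and -0.04 to 0.16. Heifer 236 had the lowest median on both diets, with 69 of 79 members higher on 72% grain and 49 on 89% grain. Heifer 170 had the highest on 72% grain, at 1.42, and the lowest sum of the members on 0% grain, at 1107 RPM. In heifer 178 all 79 members were higher on 72% grain and 77 on 89% grain. The rises on the 2 diets share the 0% grain library of the heifer, so their likeness within a heifer was not taken as a result.

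Whether the members changed further between the grain diets is the comparison that the rule did not use directly, although it rests on the same libraries, since the difference equals that of the 2 rises. Levels on 89% grain differed from those on 72% grain by a median of -0.06 over the 79 members (-0.66 to 0.50) and by -0.03 over all detected genes. Of the members, 47 (59.5%) were lower and 32 higher, beside 61.9% of all detected genes lower. In the set of 15 the median was -0.21, with 14 lower (93.3%), and in the 64 others -0.01, with 33 lower (51.6%). The genes of the set were chosen to move together from heifer to heifer, so these 14 are not 14 separate observations. By limma, 0 of the 79 members passed an adjusted p of 0.05, and 0% of all genes did. The smallest adjusted p of a member was 0.136. At an unadjusted p under 0.05 there were 17 members by limma (21.5%, beside 11.5% of all genes). By edgeR there were 12, for which the share over all genes was not counted, and edgeR also called 0 members. A p that misses the threshold in this fit, which does not pair the libraries of a heifer, does not show that the levels were equal.

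With the heifer as a replicate block, 3 members passed an adjusted p of 0.05 by limma, and none of them had a fold change over 1.5, which 0.0608% of all genes had upwards and 0.0608% downwards. At an unadjusted p under 0.05 there were 20 members (25.3%), against 17.7% of all genes. The 72% and 89% grain libraries of every heifer correlated best with each other over the 33 genes, at r = 0.88 to 0.98, although those genes were chosen for agreement between these diets. Without the fold minimum, 0.434% of all genes were higher and 0.365% lower on 89% grain. ENSBTAG00000008203 and ENSBTAG00000026966 were higher and ENSBTAG00000035171 was lower. When each heifer was left out in turn, the call was lost in 5 of 15 fits for ENSBTAG00000008203 (adjusted p up to 0.0719), in 8 for ENSBTAG00000026966 (up to 0.0854) and in 8 for ENSBTAG00000035171 (up to 0.0796).

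**Figure D4:**
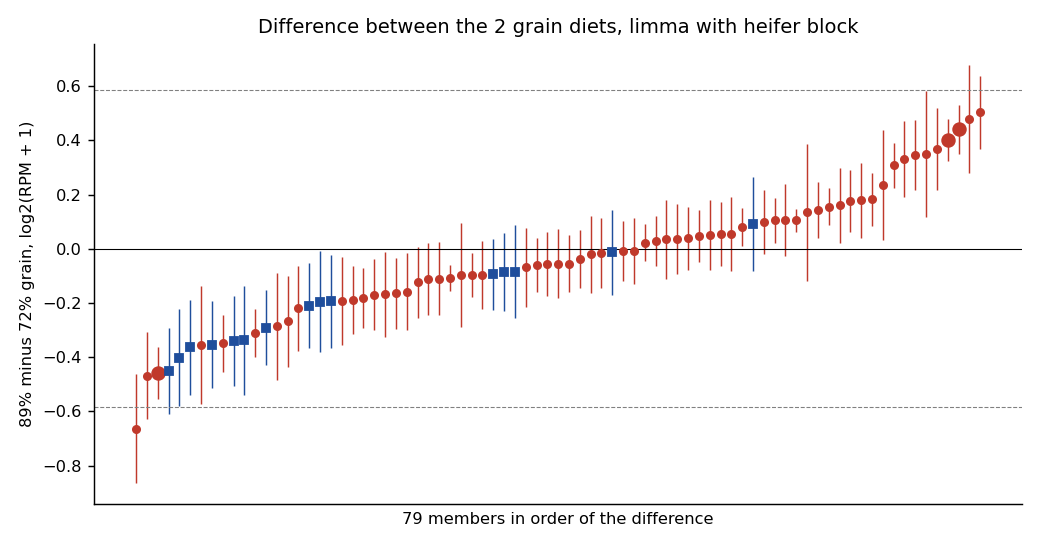
Difference between 89% and 72% grain for the 79 members in log2(RPM + 1), ± SE of the limma fit with the heifer as a block, in order of size, with dashed lines at a fold change of 1.5 in either direction. The 3 large symbols passed an adjusted p of 0.05, 2 above and 1 below 0, and 14 of the 15 blue squares lie below 0. Of all detected genes, 61.9% were lower on 89% grain. The 15 were chosen to move together from heifer to heifer, so they are not separate observations.

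ENSBTAG00000008203 was at 89.6 to 210.8 RPM on 0% grain (median 104.9), 128.5 to 235.0 RPM on 72% grain (median 203.2) and 174.2 to 339.9 RPM on 89% grain (median 247.5). The diets overlapped in part, and the 0% grain libraries of heifers 192 and 362 were the highest of theirs. It was higher on 89% than on 72% grain in 15 of 15 heifers, by 0.40 (SE 0.077; limma with the heifer block, adjusted p = 0.0309). Without the block the SE was 0.105 and the adjusted p 0.136. Heifer 286 showed the largest step, at 1.15, and heifer 246 the smallest, at 0.03.

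ENSBTAG00000026966 was a member with few reads, at 0.28 to 1.99 RPM on 0% grain (median 1.19), 1.32 to 4.30 RPM on 72% grain (median 2.22) and 1.87 to 5.99 RPM on 89% grain (median 3.78), with 8 reads in its lowest library. Only 1 of the 89% grain libraries, that of heifer 182 at 1.87 RPM, was as low as the highest 0% grain library. That 0% grain library was the one labelled 352, which matched no heifer. The next highest 0% grain library, that of heifer 170, held 1.79 RPM, so without the library labelled 352 the 0% and 89% grain levels did not overlap. It was higher on 89% than on 72% grain in 13 of 15 heifers, by 0.44 (SE 0.091; limma with the heifer block, adjusted p = 0.0327; 0.22 without it).

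ENSBTAG00000035171 was at 0.81 to 92.0 RPM on 0% grain (median 20.6), 2.51 to 235.1 RPM on 72% grain (median 94.7) and 1.35 to 174.5 RPM on 89% grain (median 77.1). It was also 1 of the 33 genes used to compare heifer numbers. Its lowest levels on 72% and 89% grain, 2.51 and 1.35 RPM, were both in heifer 182, and its lowest level on 0% grain, 0.81 RPM, was in the library labelled 286, while the library labelled 182 held 64.0 RPM. With the numbers as labelled, its change from 0% to 72% grain ran from -4.21 in heifer 182 to 5.49 in heifer 286. Over the 12 other heifers it ran from 0.46 to 3.13 and was above 0 in all of them. On 89% grain it was lower than on 72% grain in 12 of 15 heifers, by -0.46 (SE 0.096; limma with the heifer block, adjusted p = 0.0327), whereas the fit without the block, in which the differences between heifers stay in the error, gave an SE of 0.53 and an adjusted p of 0.77.

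**Figure D5:**
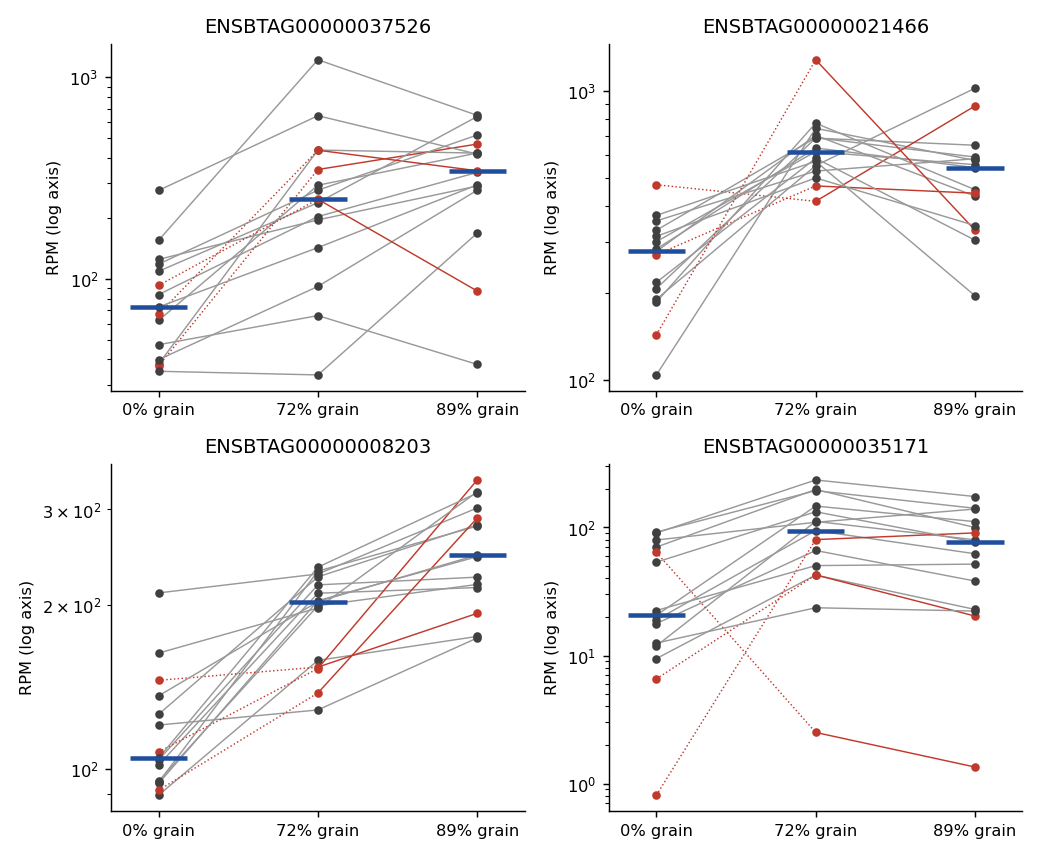
Level in RPM (log axis) of 4 members on 0%, 72% and 89% grain, with a line for each heifer, blue bars for medians, and heifers 182, 286 and 352 in red with dotted lines to the 0% grain library of their number. ENSBTAG00000008203 goes up from 72% to 89% grain in all 15 heifers, and ENSBTAG00000035171 crosses over between 0% and 72% grain in heifers 182 and 286.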

How the data were processed

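Per the study's methods, the authors demultiplexed reads with CASAVA 1.8, aligned them to the bovine genome UMD 3.1 with TopHat 2.0.10, counted reads on Ensembl genes with htseq-count and deposited 1 file of RPM per library. In every file 100% of the values were whole numbers of reads to within 0.00025 read, so read numbers were recovered from the RPM. No 2 libraries agreed within sampling noise (smallest chi-square per degree of freedom 20.6).

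The main test was limma 3.58.1 (trend, Benjamini-Hochberg adjustment) in R 4.3.3 on log2(RPM + 1) of the 11516 detected genes, without a heifer term. Genes were called at an adjusted p below 0.05 with more than a 1.5-fold change. Fold changes on this scale understate those of low genes. The alternatives added a replicate block for the heifer, applied TMM factors (edgeR 4.0.16) and median-of-ratios factors (DESeq2 1.42.0) to RPM, used a pseudocount of 0.1 or no filter, ran edgeR's quasi-likelihood test on the recovered reads, or left out libraries. The fits were also run on simulated reads, with known changes above 1.5-fold and no differences between heifers. That run does not check smaller changes or how the block handles differences between heifers. Heifer numbers pair libraries of 1 animal, except for the 3 numbers named in the report. Deviations from the diet mean correlated at a median of 0.36 over the 45 pairs of the same number and -0.02 over 630 pairs of different numbers. Both medians include those 3 numbers as labelled.

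The members and lists were chosen with earlier results of these data known. Named members were those with the largest smaller rise, the most reads and a call between the grain diets. The gene lists and markers written by symbol could not be used: 0 of the 24616 identifiers matched the RefSeq gene table, and the study's own tables give no symbol for a member. No sequences are shown for the same reason. The rumen pH classes that the study describes were not used here, since groups were taken from the sample labels alone, and neither were sequencing lanes.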

Additional observations from a re-analysis of the deposited data

How the results depend on the processing

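The rule itself depended on the scaling. With TMM or median-of-ratios factors 48 genes met it in each case, all 48 of them among the 79 members. These factors moved the median of all genes from 0.08 to -0.01 on 72% grain and from 0.06 to -0.01 on 89% grain, and the genes past an adjusted p of 0.05 without a fold minimum on 72% grain went from 2127 higher and 216 lower to 747 higher and 820 lower with TMM. The members' median rise was 0.70 on each grain diet with TMM. With a pseudocount of 0.1 the rule gave 157 genes, the 79 members included. Without a filter it gave 90, and without the 2 libraries that stood apart 81, with 67 of the 79 members. Without the 3 0% grain libraries that went against their number, a choice made after seeing the data, it gave 98, with 68 of the 79. Those rises were taken over the 12 other heifers. Leaving out each heifer in turn gave 70 to 94 genes, with 62 to 78 of the 79 members.

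Members called higher numbered 59 to 79 on 72% grain and 59 to 77 on 89% grain over the other settings, lowest with TMM and median-of-ratios factors. Without each heifer in turn they numbered 68 to 76 and 62 to 75, beside 132 to 198 and 164 to 237 among all genes. These counts, too, follow from the rule. With the heifer as a replicate block they were 79 and 77, and 71 and 73 once the 3 libraries were also left out. Among all genes, those called higher on 72% and 89% grain went from 162 and 205 to 287 and 313 with the pseudocount of 0.1, and to 104 and 143 with TMM.

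Between 89% and 72% grain, 0 members were called by limma with a fold minimum in each planned setting, the replicate block included, with 9 to 20 members at an unadjusted p under 0.05. With the block and each heifer left out in turn, added after seeing the data, 0 to 1 members were called, the 1 being ENSBTAG00000014906 without heifer 294 (-0.82, adjusted p = 0.0282). Without the fold minimum, the 3 members that passed with the block did not hold throughout. ENSBTAG00000008203 passed in 10 of these 15 fits (adjusted p 0.0184 to 0.0719), ENSBTAG00000026966 in 7 (0.014 to 0.0854) and ENSBTAG00000035171 in 7 (0.0233 to 0.0796), each with its direction kept. In the settings without the block, their adjusted p was 0.096 to 0.861. The alternatives planned for gene lists were not run, since the sources used here give no member a symbol. For members near 1 RPM, 22.5 to 37.1 reads stood behind 1 RPM, which limits their precision.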
